A study of Mus musculus with 23 samples.

Results

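The 35 genes described here carry out glycolysis or are induced when oxygen is short, and they were taken by symbol from the 37620 gene identifiers counted in each of 23 RNA libraries of mouse melanoma. All 35 symbols matched 1 identifier each. By role they fall into 3 transporters of glucose and lactate, 8 enzymes of the upper and 7 of the lower part of glycolysis, 3 regulators of glycolysis, 4 subunits and oxygen sensors of the hypoxia-inducible factors, and 10 hypoxia-induced targets. The tumours come from a model of ultraviolet-induced melanoma. The HP primaries (7 libraries, numbers 1, 3, 4, 5, 6, 7 and 9) are primary melanomas of the genotype Nme1wt / Nme2wt. The HPN primaries (7 libraries, numbers 1 to 7) are primary melanomas of the genotype Nme1+/- / Nme2+/-. The node metastases (7 libraries) and lung metastases (2 libraries, numbers 3 and 4) were taken from the Nme1+/- / Nme2+/- genotype only. By their site labels nodes 3, 4 and 8 were brachial, 6 and 7a cervical, 7b inguinal and 5 only lymph. Nodes 7a and 7b share a number and were summed as node 7, which leaves 6 node samples. The sources used here do not give age, strain, any further allele, or what HP and HPN stand for, and no label says whether each library comes from a separate animal.

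Glycolysis splits glucose into pyruvate, and lactate dehydrogenase reduces the pyruvate to lactate, which leaves the cell through monocarboxylate transporters. The hypoxia-inducible factors Hif1a and Epas1 are hydroxylated in the presence of oxygen by Egln enzymes and then degraded, so their protein accumulates when oxygen is short without any change in their RNA. The stabilised factors bind short sites with the core ACGTG or GCGTG near many glycolytic genes and near targets such as Vegfa, Car9 and Bnip3. Solid tumours often transcribe this set strongly.

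The labels were first set against the genes that define them. Nme1 was at 16.8 ± 7.93 counts per 1e6 counts (CPM, SD, n = 7) in the HP primaries and at 10.5 ± 2.79 CPM (SD, n = 7) in the HPN primaries. Nme2 was at 0.481 ± 0.196 CPM in HP and 0.238 ± 0.128 CPM in HPN primaries. The log2 differences were -0.69 and -1.02, with an unadjusted p of 0.0242 and 0.0189 and an adjusted p of 0.951 for both in edgeR. The libraries of the groups overlapped for both genes. Nme2 ran from 0.0685 to 0.863 CPM over the primaries, close to the floor, so it is a weak check of the labels. Total counts over genes were 18.9 to 89.5 times 1e6 per library. Of the 23 libraries 8 contain reads set aside for low alignment quality while 15 contain none. Those reads number only 196 (node 8) to 3709 (HP primary 7) per library. The name low-quality libraries, used below for these 8, is therefore not a measure of poor data. The batch term used below is this same division, since no label names a batch. The summed level of 12 melanocyte genes was 9478 to 75431 CPM in the primaries, 5885 to 53066 CPM in the 6 nodes and 30304 and 43992 CPM in the lungs. Markers of other cells also differed between libraries. The sum of 14 keratinocyte genes was 7.39 to 18946 CPM in the primaries and 17.5 to 39.0 CPM in the nodes. The sum of 8 B cell genes was 2.44 to 30.9 CPM in the primaries and 233 to 2091 CPM in the nodes. In bulk RNA, fewer cells of a type and less RNA per cell cannot be told apart, which applies to every level below.

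The start regions of 5 members are printed because the hypoxia core is defined by letters, and because these 5 behave differently in the data: Slc2a1, the main glucose transporter of many cells; Ldha, lactate dehydrogenase A; Egln3, an oxygen-sensing hydroxylase that is itself a hypoxia target; Pfkfb3, which makes the activator of phosphofructokinase; and Car12, a carbonic anhydrase of the cell surface. Each is the 250 bases before the start of transcription, 5′ to 3′ on the gene's own strand, from RefSeq on GRCm38.p6. Ldha and Pfkfb3 have 2 starts in that table, and the window with more matches is printed for both (5 against 1 for Ldha, 3 against 1 for Pfkfb3). Capitals mark ACGTG or GCGTG on either strand, thus also CACGT and CACGC; the palindrome CACGTG holds 2 overlapping matches and is also the core of the E-box.
Slc2a1 (chr4:119108495-119108744, plus strand): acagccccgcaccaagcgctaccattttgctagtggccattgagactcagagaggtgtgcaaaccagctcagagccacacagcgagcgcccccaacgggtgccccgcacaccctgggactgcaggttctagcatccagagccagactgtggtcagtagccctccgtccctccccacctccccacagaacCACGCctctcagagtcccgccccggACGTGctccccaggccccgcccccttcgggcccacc
Ldha (chr7:46845554-46845803, plus strand): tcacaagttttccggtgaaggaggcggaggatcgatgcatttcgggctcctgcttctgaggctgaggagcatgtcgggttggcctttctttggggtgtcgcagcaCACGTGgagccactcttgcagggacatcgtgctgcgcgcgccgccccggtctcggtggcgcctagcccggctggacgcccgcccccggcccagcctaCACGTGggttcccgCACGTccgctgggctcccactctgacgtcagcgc
Egln3 (chr12:54203875-54204124, minus strand): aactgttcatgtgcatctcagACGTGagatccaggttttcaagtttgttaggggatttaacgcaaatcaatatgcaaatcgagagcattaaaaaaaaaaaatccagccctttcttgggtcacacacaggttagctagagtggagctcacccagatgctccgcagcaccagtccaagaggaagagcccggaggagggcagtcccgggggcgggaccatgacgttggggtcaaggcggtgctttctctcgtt
Pfkfb3 (chr2:11502091-11502340, minus strand): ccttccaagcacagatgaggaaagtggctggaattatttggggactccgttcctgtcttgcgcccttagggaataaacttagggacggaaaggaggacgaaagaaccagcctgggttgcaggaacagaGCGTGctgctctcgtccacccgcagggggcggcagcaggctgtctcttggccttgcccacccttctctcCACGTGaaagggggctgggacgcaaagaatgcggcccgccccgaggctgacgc
Car12 (chr9:66713436-66713685, plus strand): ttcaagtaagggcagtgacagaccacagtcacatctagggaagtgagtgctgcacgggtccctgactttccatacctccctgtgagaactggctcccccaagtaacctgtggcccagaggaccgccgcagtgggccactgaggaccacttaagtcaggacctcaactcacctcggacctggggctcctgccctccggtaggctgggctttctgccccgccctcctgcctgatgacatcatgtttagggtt

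Ldha, Slc2a1, Pfkfb3 and Egln3 hold at least 1 run in capitals and Car12 holds none. Counted over windows from 250 bases before to 50 after a start, 28 of the 32 members with a window held a match (87.5%), against 12628 of all 27025 genes with a window (46.7%). Among genes expressed highly enough to be tested between the genotypes the share was 64.8% (7492 of 11565). The 4 members with a window and no match were Gpi1, Tpi1, Eno2 and Car12. Genes with several starts counted once if any of their windows matched. A match describes letters and says nothing about binding in these tumours.

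Per kilobase of exon, the 7 most abundant members in the HPN primaries were all glycolytic enzymes. Aldoa, the aldolase of most tissues, had a median of 399 CPM per kilobase, followed by Pkm with 333, Gapdh with 235, Eno1 with 178, Ldha with 167, Pgk1 with 143 and Tpi1 with 141. Epas1, the hypoxia-inducible factor subunit 2 alpha, came next with 66.2 CPM per kilobase and Hif1a had 38.2. The lowest were Slc2a3, a glucose transporter of high affinity, with 1.34 and Car12 with 0.846. All 35 passed the filter on low counts in every comparison. The levels of Gapdh, Aldoa, Pgk1, Pgam1 and Ldha are uncertain to the extent that reads are shared with processed pseudogenes of these genes.

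**Figure D1:**
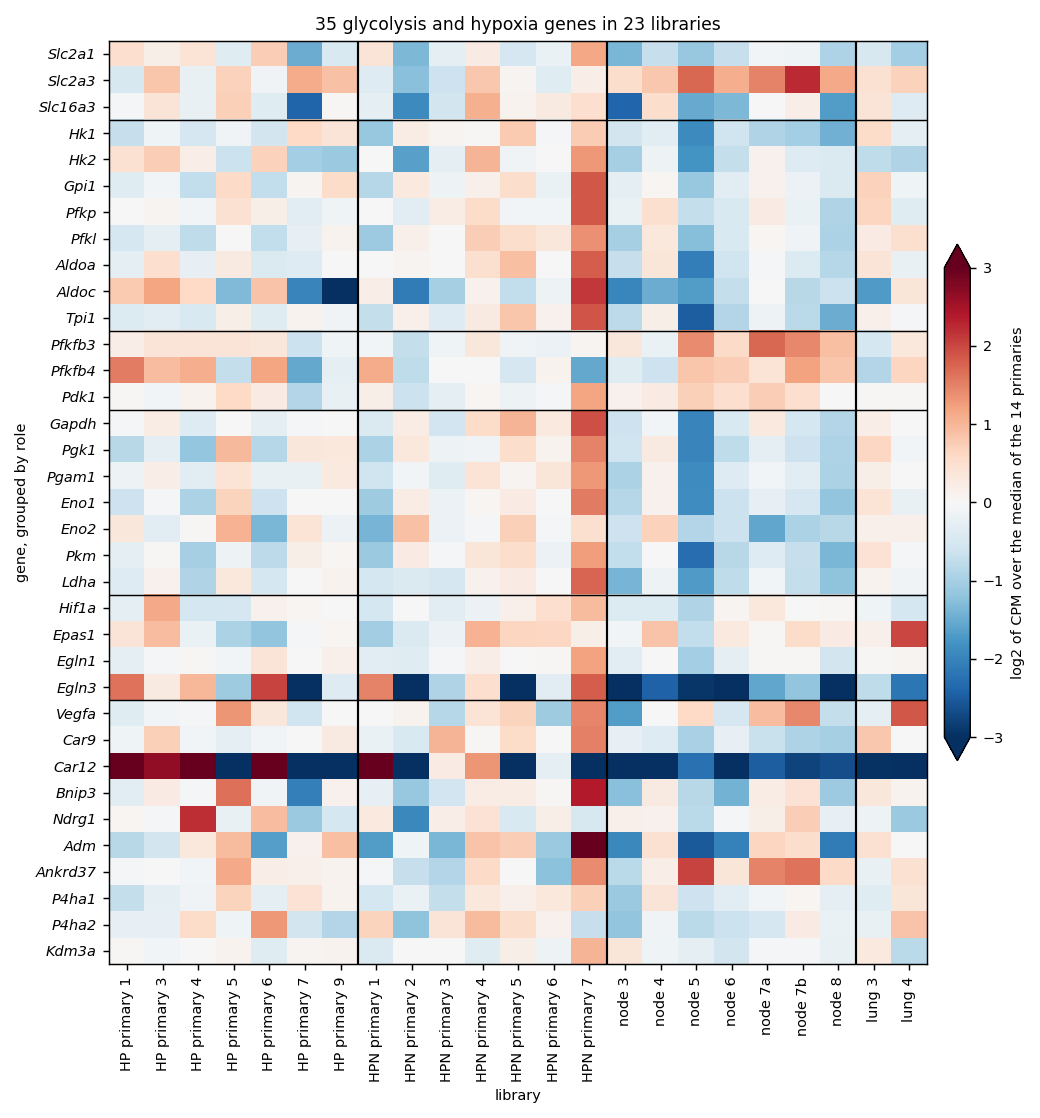
Level of the 35 genes (rows, grouped by role) in the 23 libraries (columns, grouped by HP primaries, HPN primaries, nodes and lungs), as log2 of CPM over the median of the 14 primaries, with 0.1 CPM added to both and the colour scale ending at 3 in either direction. HPN primary 7 is red for most glycolytic genes, node 5 is blue for them, and Car12 and Egln3 change most between libraries.

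HPN primary 7 stood apart from the other primaries in most of these genes. It had the highest level of 23 of the 35 genes among the 14 primaries, and of 21 of them among all 23 libraries. Its median over the 35 genes was 1.301 log2 units above the median of the primaries, and 23 of the 35 were more than 2-fold above it. The upper enzymes stood at a median of 1.83 and the lower enzymes at 1.49 log2 units, against 0.08 for the regulators. Adm, which encodes the vasodilator adrenomedullin, reached 508 CPM in HPN primary 7, and the next highest primary was HP primary 5 with 78.0 CPM, a ratio of 6.51. Ldha reached 1826 CPM against 682 CPM in the next highest (2.68-fold), and Pfkp, the platelet form of phosphofructokinase, 546 CPM against 221 CPM (2.47-fold). Gpi1, which converts glucose 6-phosphate to fructose 6-phosphate, was at 1358 CPM against 561 CPM. Bnip3, a mitochondrial protein that promotes mitophagy in hypoxia, was at 225 CPM against 135 CPM. Not every hypoxia gene was high there: Pfkfb4, the isoform of Pfkfb3 strongly induced by hypoxia in many cells, was at its lowest of all libraries in HPN primary 7 with 4.36 CPM, and Ndrg1 was at 87.1 CPM, below the median of the primaries. The same library had the lowest macrophage sum of the 14 primaries (67.5 CPM), one of the lowest sums of muscle genes (3.03 CPM), an erythroid sum of 1540.3 CPM and a melanocyte sum of 60375 CPM. It is 1 of the 8 libraries with reads of low alignment quality (543 reads). Its gene counts were the largest share of all entries among the 23 libraries (50.8%). The part of these in the levels was not tested.

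Among the HP primaries, number 5 came closest to this profile, with the highest level of 15 of the 35 genes in its group. It led in Pgk1 (586 CPM), Eno1 (1439.9 CPM), Bnip3 (135 CPM), Vegfa (100.1 CPM) and Ankrd37 (5.28 CPM), the last a small ankyrin protein known as a Hif1a target. HP primary 7 had the lowest level of 2 transporters and the highest of the third among the 14 primaries. Slc2a3 was at 27.0 CPM. Slc16a3, the transporter that exports lactate, was at 6.42 CPM there and at 26.8 to 56.3 CPM in the other 6 HP primaries. The same tumour had 33.7 CPM of Slc2a1, 1.34 CPM of Egln3 and 10.3 CPM of Bnip3, each the lowest of all libraries, while its Hk1 (462 CPM) and Pkm (1561 CPM) were the highest of the HP primaries.

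Car12 and Pfkfb4 were high in the primaries that held more RNA of keratinocytes and of several other skin and immune cells. In the HP primaries 1, 3, 4, 5, 6, 7 and 9, Car12 was at 98.0, 50.1, 97.3, 0.345, 147, 0.0917 and 0.0591 CPM. In the HPN primaries 1 to 7 it was at 122, 0.517, 9.38, 20.1, 0.0583, 6.43 and 0.867 CPM. The 8 primaries above 6 CPM (HP 1, 3, 4 and 6, HPN 1, 3, 4 and 6) are the 8 with the highest keratinocyte sums (1262 to 18946 CPM), and in the other 6 that sum was 7.39 to 92.6 CPM. The same 8 had the highest sums of fibroblast genes (3382 to 27245 CPM, against 237 to 2246 CPM in the other 6), macrophage genes (444 to 1113 CPM, against 67.5 to 283 CPM), adipocyte genes (60.5 to 217 CPM, against 7.23 to 35.1 CPM) and T cell genes (12.0 to 51.7 CPM, against 2.62 to 7.21 CPM). Pfkfb4 was at 12.9 to 37.4 CPM in the same 8 and at 4.36 to 10.7 CPM in the other 6. Egln3 was at 100.4, 39.1, 64.9, 15.4, 133, 1.34 and 24.8 CPM in the HP primaries and at 91.6, 2.38, 17.4, 45.8, 2.003, 25.9 and 115 CPM in the HPN primaries. It followed the same 8 libraries less closely, since HPN primary 7 with a keratinocyte sum of 92.6 CPM had the second highest Egln3. The highest primary was 2513 times the lowest for Car12, 99.7 times for Egln3 and 73.5 times for Aldoc, the brain form of aldolase, but 2.17 times for Pfkfb3. Which cells these transcripts come from was not tested.

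The comparison of HPN with HP primaries addresses the effect of losing 1 copy of Nme1 and of Nme2 on this gene set. None of the 35 genes passed in edgeR's quasi-likelihood test with Benjamini-Hochberg adjustment over 16578 genes, and 0% of all genes tested did (percent called 0). At an unadjusted p under 0.05 there were 4 of the 35 and 477 of all genes, and DESeq2 also called 0 of the 35. Of the 35 differences 27 were positive and their median was 0.13 log2 units, against -0.05 over all genes. All 15 enzymes of upper and lower glycolysis were positive, with medians of 0.44 and 0.42. The smallest unadjusted p values belonged to Pfkl, the liver form of phosphofructokinase (log2 0.72 ± 0.27 SE), Tpi1 (0.69 ± 0.32), Aldoa (0.63 ± 0.29) and Gapdh (0.68 ± 0.32), all with an adjusted p of 0.951 in edgeR. The sign of the median depended on 1 tumour. Without HPN primary 7, 14 of the 35 were positive, the median was -0.08, and 0 of the 35 had an unadjusted p under 0.05. With the primaries that hold reads of low alignment quality left out, 15 were positive and the median was -0.06. These were HP primaries 3, 6, 7 and 9 and HPN primary 7, so this fit again lacks HPN primary 7 and is no separate check.

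The levels behind these differences overlapped for every gene. Slc2a1 was at 134, 107, 127, 73.6, 159.8, 33.7 and 68.9 CPM in the HP primaries and at 124.5, 37.4, 77.2, 113, 66.7, 83.0 and 214 CPM in the HPN primaries, a log2 difference of -0.02 ± 0.39 (SE). Hk2, the hexokinase induced in many tumours, ran from 39.0 to 142 CPM (median 98.4) in HP and from 27.6 to 209.9 CPM (median 84.1) in HPN primaries. Neither of these first steps of glucose use separated the genotypes. Ldha ran from 291 to 682 CPM (median 538) in HP and from 377 to 1826 CPM (median 553) in HPN primaries. Pgk1, phosphoglycerate kinase, ran from 134 to 586 CPM (median 247) and from 154 to 839 CPM (median 321). Both enzymes overlapped between the genotypes, and their highest primary was HPN primary 7. Hif1a had medians of 228 and 225 CPM, with HP primary 3 at 500.2 CPM and all other HP primaries between 158 and 246 CPM. It ran from 158 to 435 CPM in the HPN primaries. Epas1 ran from 144 to 619 CPM (median 310.0) in HP and from 157 to 670.3 CPM (median 370.0) in HPN primaries, and neither subunit separated the genotypes. Among the targets, Vegfa, the main angiogenic factor, ran from 26.4 to 100.1 CPM (median 39.2) in HP and from 19.1 to 111 CPM (median 43.5) in HPN primaries. Car9, the tumour-associated carbonic anhydrase, ran from 2.79 to 5.74 CPM (median 3.30) and from 2.52 to 10.1 CPM (median 3.58). Bnip3 ran from 10.3 to 135 CPM (median 42.3) and from 19.5 to 225 CPM (median 43.8). The highest value of all 3 targets in the HPN primaries was that of number 7. Ndrg1, a stress-induced gene, had a median of 117 CPM in HP primaries, where number 4 reached 569.9 CPM, and of 139 CPM in HPN primaries, where number 2 was lowest with 32.0 CPM.

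**Figure D2:**
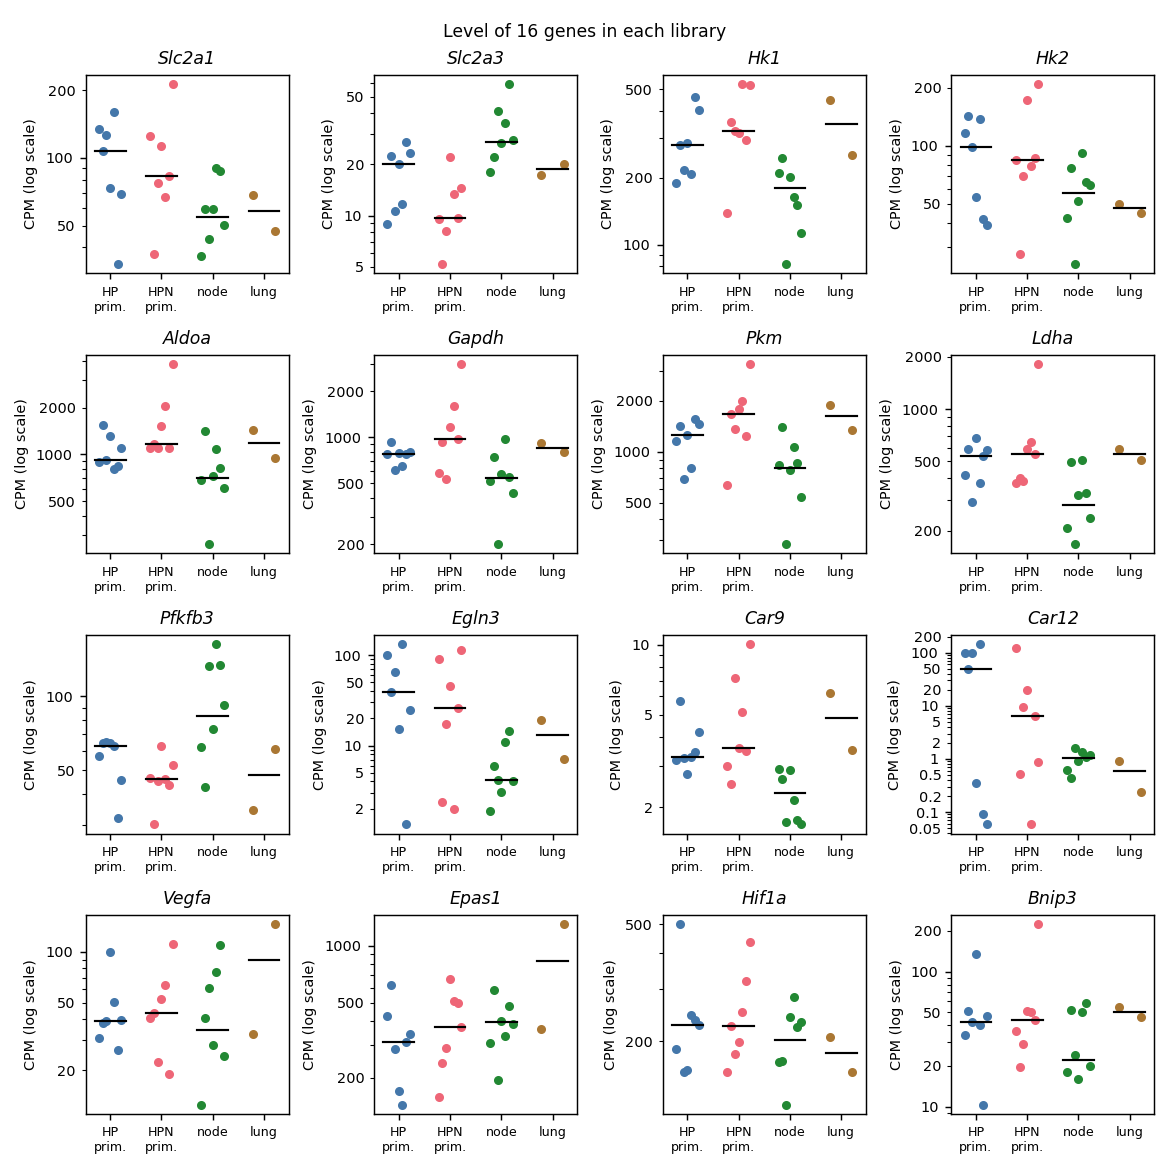
CPM on a log scale for 16 of the genes in HP primaries, HPN primaries, nodes and lungs. Each point is 1 library, nodes 7a and 7b are drawn apart, and the line is the group median with 7a and 7b taken as 1 sample. The genotypes overlap in every panel, nodes sit lower for Egln3 and the glycolytic enzymes and higher for Slc2a3 and Pfkfb3.

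Node metastases were compared with HPN primaries in a fit that also held the lungs. Of the 35 genes 11 passed (31.4%), against 22.5% of the 19152 genes tested. Lower in nodes were 9 of the 35 (25.7%), against a background of 9.81% of genes called lower, and higher were 2 (5.7%), against 12.7% called higher. The differences of 29 of the 35 were negative and their median was -0.87 log2 units, against -0.08 over all genes. The median stayed negative at -0.62 without HPN primary 7 and at -0.70 without node 5. The number of calls depended on single libraries: it was 5 without HPN primary 7 (3996 of 19108 genes called in all) and 1 without node 5 (2731 of 18892). Called lower were 3 of the 35 without HPN primary 7 (1739 of 19108 genes) and 0 without node 5 (945 of 18892). In neither fit was the share called lower above that of all genes. The number of members called was 2 without both (2821 of 18880) and 0 among the libraries free of low-quality reads (1542 of 18820). It was also 5 without node 3, 3 without node 6, 6 without node 7, 2 without node 8 and 6 without HPN primary 4 or 5. In these fits 2904 to 3818 genes passed in all. DESeq2 called 17. With the title number, read as the animal, as a block (numbers 3 to 7, 10 samples) 3 genes passed, Slc2a1, Hk2 and Pfkl, none of them among the 11, and the same 10 samples without the block gave 2, Hk1 and Car9. In that block 730 of 16456 genes passed, and in the same samples without it 1832.

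Among the transporters Slc2a3, known from neurons and white blood cells, rose and Slc2a1 did not pass. Slc2a3 was at 18.0, 22.1, 41.3, 26.6, 47.9 and 27.8 CPM in nodes 3 to 8 and at 9.51, 5.17, 8.15, 22.1, 13.3, 9.72 and 14.5 CPM in HPN primaries 1 to 7. All nodes but number 3 were at or above the highest HPN primary, number 4. The log2 difference was 1.36 ± 0.31 (SE, adjusted p = 0.00772 in edgeR), and Slc2a3 passed in 23 of 26 alternatives. Slc2a1 was at 36.7, 59.3, 43.5, 59.1, 88.7 and 50.2 CPM in the nodes, with a difference of -0.88 and an adjusted p of 0.0663. Node 3 was just below the lowest HPN primary, number 2 with 37.4 CPM, and the other nodes lay within the range of the primaries. Slc16a3 had a difference of -0.82 (adjusted p = 0.24).

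In upper glycolysis 3 of 8 enzymes fell and the median of the 8 was -1.001 log2 units. Hk1, the hexokinase of most resting tissues, was at 211, 245, 81.6, 202, 157 and 112 CPM in the nodes and at 139, 357, 323, 316, 529.8, 297 and 519.6 CPM in the HPN primaries. Every HPN primary except number 1 was above every node, and Hk1 fell by 1.09 on the log2 scale (SE 0.30, adjusted p = 0.02) and passed in 21 of 26 alternatives. Aldoa was at 680.0, 1406, 263, 727, 945 and 605 CPM in the nodes against 1092, 1160.3, 1095, 1526, 2058, 1094 and 3842 CPM. Only node 4 reached into the range of the primaries, and Aldoa fell by 1.15 (SE 0.38, adjusted p = 0.0414). Tpi1, triose phosphate isomerase, was at 202, 391, 63.1, 191, 256 and 124 CPM in the nodes against 212, 389, 268, 418, 617, 383 and 1300.0 CPM, and fell by 1.34 (SE 0.44, adjusted p = 0.04). Aldoa and Tpi1 each passed in 13 of 26 alternatives. Without HPN primary 7 their differences were -0.83 and -0.93, with an adjusted p of 0.0798 and 0.0794, and without node 5 they were -0.96 and -1.14, with 0.0893 and 0.088. Hk2 had a difference of -0.91 and did not pass (adjusted p = 0.0997). The differences of the other 4 (Gpi1, Pfkp, Pfkl and Aldoc) lay between -1.38 and -0.74, with adjusted p from 0.0629 to 0.141.

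In lower glycolysis 3 of 7 enzymes fell, with a median of -0.9997 log2 units. Gapdh was at 516, 747, 200.1, 577, 756 and 431 CPM in the nodes against 588, 936, 536, 1159.7, 1613, 973 and 3025 CPM, and fell by 1.24 (SE 0.39, adjusted p = 0.0357). Pkm, pyruvate kinase, was at 831, 1404, 283, 783, 958 and 537 CPM against 639, 1664, 1366, 1797, 1992, 1242 and 3319 CPM, and fell by 1.12 (SE 0.37, adjusted p = 0.0407). Ldha was at 208, 494, 167, 323, 418 and 236 CPM against 377, 403, 385, 593, 648, 553 and 1826 CPM, and fell by 1.16 (SE 0.38, adjusted p = 0.0398). In all 3 enzymes node 5 was the lowest and nodes 4 and 7 the highest of the nodes, and those highest nodes lay within the range of the primaries. Without HPN primary 7 the differences were -0.88, -0.89 and -0.72, with adjusted p of 0.0672, 0.0788 and 0.0605. Gapdh and Ldha passed in 14 and Pkm in 11 of 26 alternatives. Pgk1 had a difference of -0.96 (adjusted p = 0.0693), with 76.3 to 358 CPM in the nodes and 154 to 839 CPM in the HPN primaries.

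The regulators went the other way. Pfkfb3 rose by 0.97 log2 units (SE 0.28, adjusted p = 0.0232), with 62.2, 42.9, 133, 73.7, 149 and 92.3 CPM in the nodes and 46.5, 30.1, 45.1, 62.7, 46.2, 43.6 and 52.5 CPM in the HPN primaries. Node 4 alone lay below the median of the primaries. Pfkfb3 passed in 18 of 26 alternatives, and not without node 5 (adjusted p = 0.0531), without node 7 (0.0635), with a batch term (0.0533) or with the keratinocyte covariate (0.0711). Nor did Pfkfb3 pass with the block, in the block's samples without it, without the low-quality libraries, or without HPN primary 7 and node 5. The highest adjusted p of all 26 was 0.226, in edgeR. Pfkfb4 had a difference of 0.49 and Pdk1, the kinase that holds pyruvate back from the mitochondria, 0.23, with adjusted p of 0.41 and 0.503. Of the factor subunits, Hif1a (-0.36, adjusted p = 0.255) and Epas1 (-0.06, adjusted p = 0.913) did not pass, with 122 to 252 CPM (median 202) and 194 to 586 CPM (median 393) in the nodes. Egln3 fell by 3.03 (SE 0.87, adjusted p = 0.0225), with 1.88, 5.97, 4.19, 3.05, 12.8 and 4.02 CPM in the nodes, levels reached among the HPN primaries only by numbers 2 and 5. It passed in 18 of 26 alternatives. With the keratinocyte genes as a covariate its difference was -2.22 (adjusted p = 0.123), and without node 5, 6 or 8 the adjusted p was 0.0504 to 0.0553.

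Among the 10 targets 2 fell and none rose. Car9 was at 2.93, 2.64, 1.73, 2.89, 1.96 and 1.69 CPM in the nodes against 3.01, 2.52, 7.19, 3.58, 5.11, 3.48 and 10.1 CPM, and fell by 1.13 (SE 0.35, adjusted p = 0.0321). Car9 passed in 16 of 26 alternatives, and without HPN primary 7 it was at -0.88 (adjusted p = 0.0617). Car12 was at 0.614, 0.439, 1.60, 0.905, 1.203 and 1.17 CPM in the nodes and fell by 4.59 (SE 1.36, adjusted p = 0.0262), passing in 13 of 26 alternatives. With the keratinocyte genes as a covariate its difference was 2.38 (adjusted p = 0.127) and with the muscle genes 0.23 (adjusted p = 0.866), so its direction depended on these covariates. Vegfa (-0.22, adjusted p = 0.769), Bnip3 (-1.08, adjusted p = 0.142) and Ndrg1 (0.06, adjusted p = 0.915) did not pass. In the nodes Vegfa ran from 12.5 to 93.8 CPM (median 34.4), Bnip3 from 16.01 to 54.4 CPM (median 22.1) and Ndrg1 from 69.8 to 172 CPM (median 124.5, set against 139 in the HPN primaries). Adm had the most negative difference of those that did not pass, -2.03 (adjusted p = 0.116), and -0.59 without HPN primary 7.

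**Figure D3:**
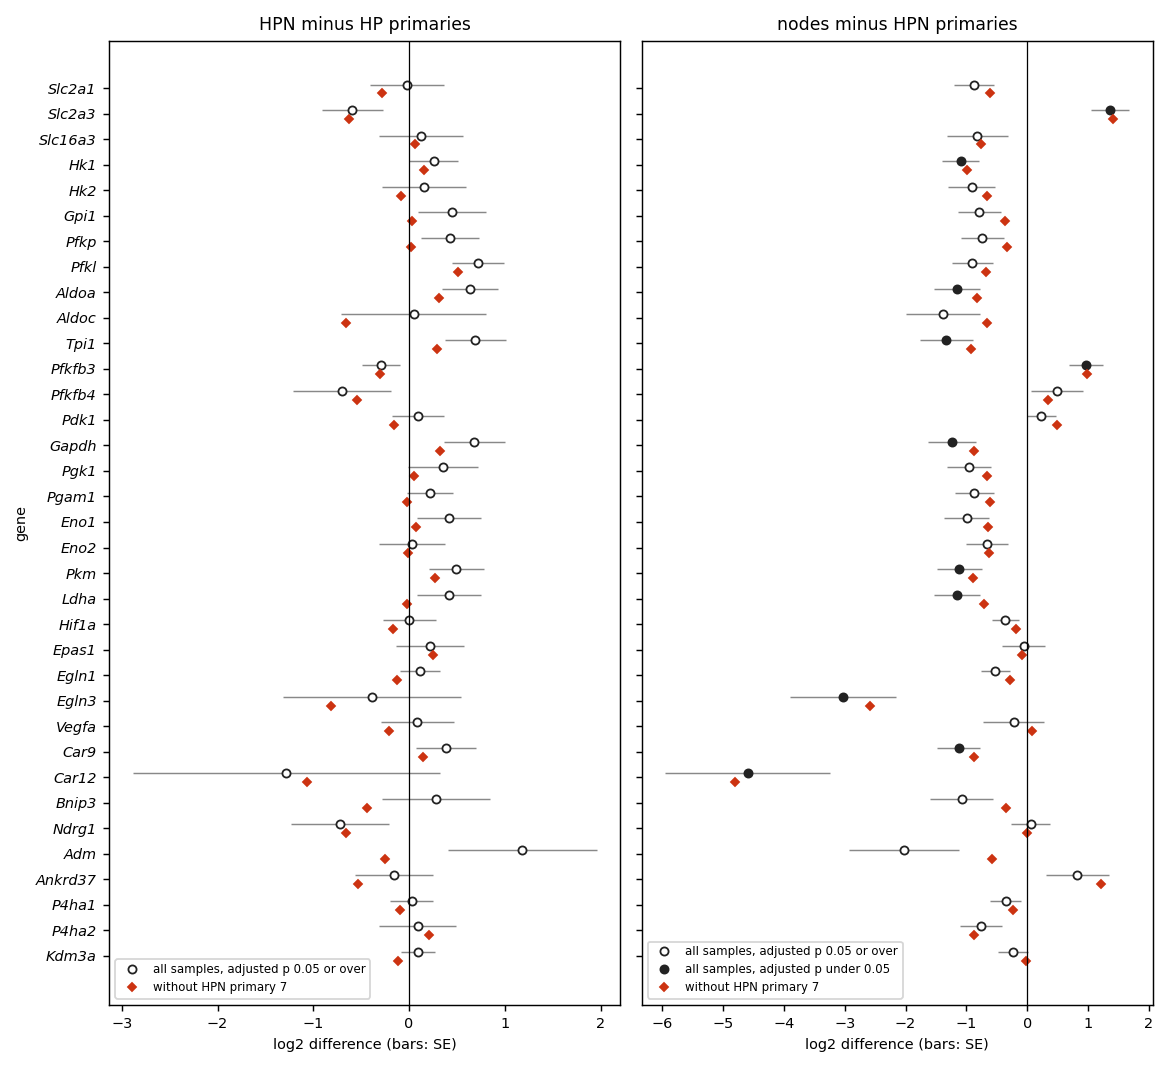
Log2 differences of the 35 genes for HPN minus HP primaries (left) and nodes minus HPN primaries (right), with bars of 1 SE, filled circles for an adjusted p under 0.05, and red diamonds for the fit without HPN primary 7. On the left no circle is filled and most diamonds lie near 0, on the right 29 of 35 circles lie below 0 and Slc2a3 and Pfkfb3 lie above it.

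Within a title number, most genes were lower in the node than in the primary. For numbers 3 to 7, 18 of the 35 genes were lower in the node in 5 of 5 pairs and 9 more in 4 of 5. The 18 include Slc2a1, Slc16a3, Hk1, Hk2, Pfkl, Aldoa, Gapdh, Pkm, Ldha, Hif1a and Car9. Within single numbers, 27 to 29 of the 35 were lower in the node, with medians from -1.42 for number 7 to -0.32 for number 4. Such counts were not made over all genes. In the main fit of nodes against HPN primaries 45.1% of all genes had a positive difference. In the fit with the number as a block, Slc2a1 fell by 0.91 (SE 0.16, adjusted p = 0.0296 in edgeR), Hk2 by 1.18 (SE 0.19, adjusted p = 0.022) and Pfkl by 1.11 (SE 0.22, adjusted p = 0.0438). Slc2a3 was higher in the node in 5 of 5 pairs, though in number 4 both tissues were at 22.1 CPM. These pairs use the primaries and nodes of the comparison above and are no separate evidence.

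**Figure D4:**
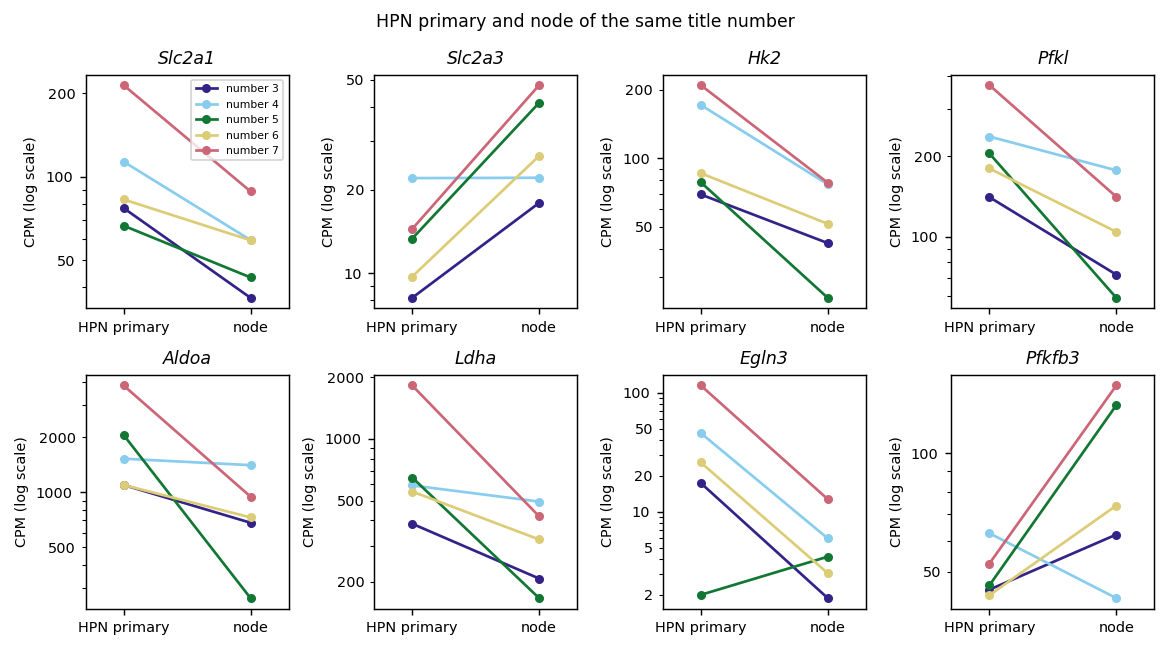
CPM on a log scale of 8 genes in the HPN primary and the node of the same title number, with 1 line per number from 3 to 7. Slc2a1, Hk2, Pfkl, Aldoa and Ldha go down on all 5 lines, Slc2a3 is flat in number 4 and goes up in the other 4, and Egln3 goes up in number 5 only.

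Ratios of paired genes within a library do not depend on scaling, and 10 were tested by exact two-sided permutation over samples. The Slc2a3/Slc2a1 log2 ratio was -0.90 ± 0.46 (SD, n = 6, from -1.42 to -0.07) in the nodes and -3.07 ± 0.61 (SD, n = 7, from -3.89 to -2.32) in the HPN primaries. The groups did not overlap, and the difference of 2.16 had an exact permutation p of 0.000583, the smallest that 1716 arrangements can give, or 0.00583 adjusted over the 10 ratios. Under its 15 alternatives the adjusted p was 0.00583 to 0.0476. The permutation exchanged nodes and primaries without regard to title number. This ratio uses 2 genes and the samples of the node comparison above and is no separate evidence. In the HP primaries the ratio ran from -3.90 to -0.32, and HP primary 7 with -0.32 lay among the nodes. The other 9 ratios did not pass between nodes and primaries. These were Hk2/Hk1, Pfkl/Pfkp, Aldoc/Aldoa, Eno2/Eno1, Pfkfb4/Pfkfb3, Epas1/Hif1a, Egln3/Egln1, P4ha2/P4ha1 and Car12/Car9, with adjusted p from 0.501 to 0.699. Between the genotypes 0 of the 10 passed (adjusted p 0.864, 3432 arrangements).

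**Figure D5:**
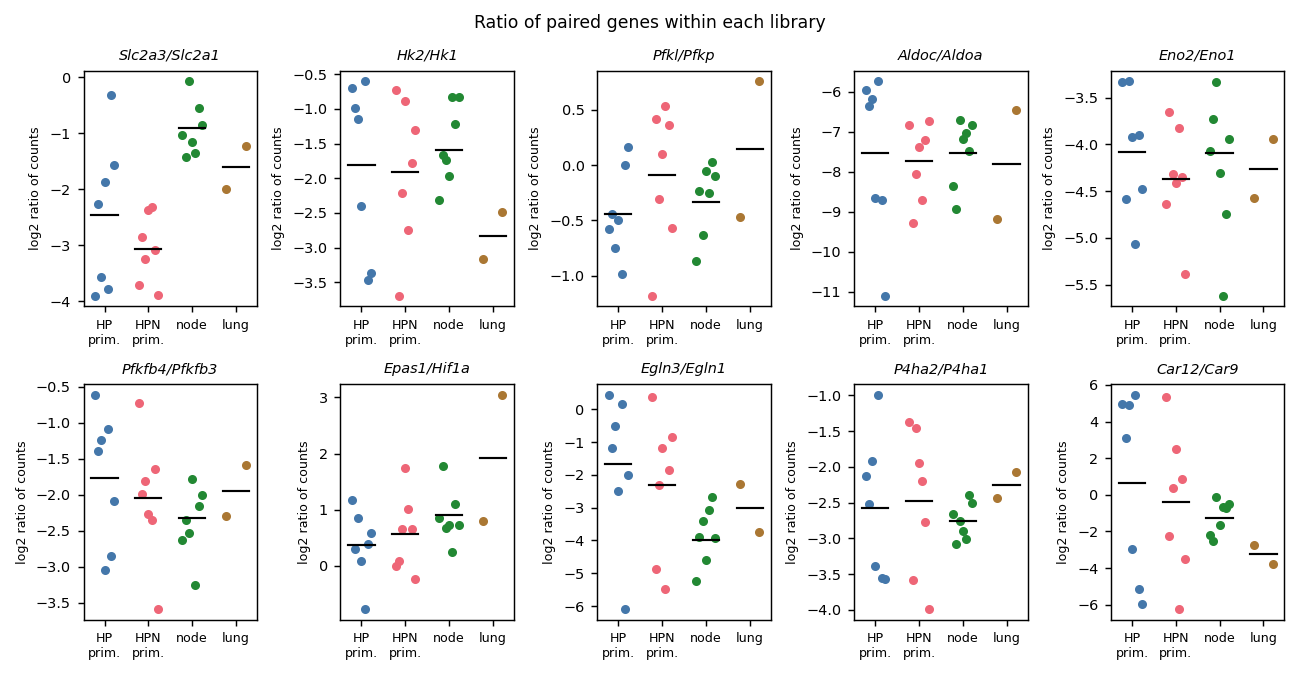
Log2 ratio of counts of 10 gene pairs within each library, with points for libraries (nodes 7a and 7b apart) and lines for group means with 7a and 7b as 1 sample. The Slc2a3/Slc2a1 ratio separates all nodes from all HPN primaries, and the other 9 pairs overlap.

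The nodes with the lowest and the highest levels also stood apart in marker genes. Node 5 had the lowest level of 15 of the 35 genes among all 23 libraries, including Hk1, Aldoa, Gapdh, Pkm and Ldha, and its median over the 35 was 1.13 log2 units below that of the primaries. It had the highest B cell sum (2091 CPM) and the lowest melanocyte sum (5885 CPM) of the nodes, with a T cell sum of 607 CPM. Node 5 also had the fewest gene counts of the 23 libraries (18.9 times 1e6). Its gene counts were the lowest share of all entries (25.0%), and its share of reads in no feature was the highest (49.3%). Node 4 had the highest level of 13 of the 35 among the node libraries, and its median was 0.07 above that of the primaries. It had the lowest B cell sum (233 CPM), the lowest T cell sum (104 CPM) and the highest melanocyte sum (53066 CPM). Slc2a3 and Pfkfb3 were in the opposite order, with 41.3 and 133 CPM in node 5 and 22.1 and 42.9 CPM in node 4. Ankrd37 was also highest in node 5, with 9.85 CPM. The macrophage sum was 363 to 1310.5 CPM in the nodes and 67.5 to 717 CPM in the HPN primaries. All 8 B cell genes had counts in every node. The part of lymphoid and myeloid RNA, and of the counted share of reads, in the node differences was not tested.

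For the lung metastases 0 of the 35 genes passed against HPN primaries in edgeR, where 0.266% of all genes did (0.251% higher and 0.0157% lower). At an unadjusted p under 0.05 there were 2 of the 35, Epas1 (log2 difference 1.12) and Car12 (-5.34), and 1394 of all genes, and DESeq2 called 1, Car12 (log2 -5.42, adjusted p = 0.0233). Of the differences 7 of 35 were positive with a median of -0.12, and without HPN primary 7 it was 23 of 35 with a median of 0.10. The lungs were unlike each other. Epas1, which endothelium and lung tissue express strongly, was at 1303 CPM in lung 4 and 362 CPM in lung 3, and Vegfa, which alveolar epithelium makes, was at 146 and 32.6 CPM. Lung 4 had a lung epithelium sum of 7675 CPM and an endothelium sum of 870 CPM, and lung 3 had 4.35 and 146 CPM. The part of lung tissue in these 2 genes was not tested. Of the 15 glycolytic enzymes, 13 were within the range of the HPN primaries in both lungs. The others were Aldoa, at 1429.9 and 940.4 CPM, and Pfkp, at 233 and 117 CPM, both below that range in lung 4. Ldha was at 589 and 510.1 CPM, Gapdh at 912 and 797 CPM, Pgk1 at 459 and 281 CPM, Slc2a1 at 68.6 and 47.2 CPM and Hk2 at 49.8 and 45.2 CPM in lungs 3 and 4. Hif1a was at 208 and 157 CPM, Bnip3 at 54.5 and 46.2 CPM, Ndrg1 at 110.5 and 56.6 CPM, Car9 at 6.21 and 3.52 CPM and Egln3 at 19.2 and 7.10 CPM.

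Lungs against nodes also gave 0 of 35 calls, where 5.04% of all genes passed (1.96% higher and 3.09% lower in lung), and DESeq2 called 0 of the 35. Here 4 of the 35 had an unadjusted p under 0.05 in edgeR, and so did 4379 of all 19152 genes tested, a larger share. Of the 35 differences 25 were positive, and the median was 0.69 against 0.01 over all genes. Hk1, Gapdh, Ldha, Egln1 and Car9 were higher in both lungs than in all 6 nodes, but none of them passed (adjusted p 0.137 to 0.493 in edgeR). Lungs and nodes also did not overlap in 18 of 71 other genes of these pathways, a larger share than the 5 of 35 here. The share over all genes was not counted, so no conclusion is drawn from these 5. Taken apart, node 7a had 975 CPM of Gapdh, above both lungs, and 512 CPM of Ldha, just above lung 4. The Slc2a3/Slc2a1 log2 ratio was -1.99 in lung 3 and -1.22 in lung 4. Both lung comparisons rest on 2 libraries and share samples with the node comparison.

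Of 77 other genes of these pathways, taken from 4 lists, 71 could be tested in the nodes and 13 passed (18.3%, against 22.5% of all genes). Other enzymes of glycolysis gave 3 lower of 15 tested: the muscle form of phosphofructokinase Pfkm (log2 -1.57 ± 0.43 SE, adjusted p = 0.0177), the hexokinase Hkdc1 (-2.67, adjusted p = 0.0299) and the muscle mutase Pgam2 (-4.72, adjusted p = 0.0426). Pgam2 and Pfkm are muscle enzymes, and the summed muscle genes ran from 3.03 to 4165 CPM in the HPN primaries and from 5.88 to 10.01 CPM in the nodes. With the muscle genes as a covariate Pgam2 was at 1.67 (adjusted p = 0.328). Genes of transport and of pyruvate entry into mitochondria gave 4 lower of 16. These were Mpc2, a part of the pyruvate carrier (-0.58), Bsg, the partner of the lactate transporters (-0.88), Pdk2 (-0.65) and the glucose transporter Slc2a8 (-0.72).

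Other genes of the hypoxia-inducible factor pathway gave 1 higher of 9, Hif3a (2.48, adjusted p = 0.0264), at 1.43 ± 0.81 CPM (SD, n = 6) in nodes. Other hypoxia-induced genes gave 2 higher and 3 lower of 31. Cxcr4, a chemokine receptor that lymphocytes express strongly, rose from 17.5 ± 10.2 CPM (SD, n = 7) to 88.8 ± 54.1 CPM (SD, n = 6), a log2 difference of 2.32 (adjusted p = 0.00332), with no overlap. Ppfia4 rose by 1.63 log2 units (adjusted p = 0.036). Fam162a and Higd1a, both mitochondrial proteins, fell by 1.06 and 0.96, and Plod1, a lysyl hydroxylase of collagen, by 1.202 on the log2 scale. Between the genotypes 0 of 68 passed. The smallest unadjusted p in each list belonged to Hkdc1 (log2 1.45), Pdk2 (0.46), Egln2 (0.36) and Bnip3l (-0.32), none of which passed. For lungs against primaries 0 of 71 passed, with Bpgm, Pdk2, Hif3a and Tfrc of smallest p in their lists. For lungs against nodes 1 of 71 passed, Bpgm (1.91, adjusted p = 0.0318), which makes bisphosphoglycerate in red cells. Mpc2, Arnt2 and Plod1, of smallest p in the other lists, did not pass. The erythroid sum was 3810 and 823 CPM in the lungs and 28.4 to 195 CPM in the nodes, and its part in Bpgm was not tested.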

How the data were processed

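Total RNA was purified with the AllPrep kit and made into directional libraries, per the labels' protocols. The tools named in the submitters' processing notes are STAR 2.5.3a and bcl2fastq 1.8.4, with the build mm9. Each deposited table holds raw, unnormalized counts by Ensembl identifier for 1 library. Which counter, strand setting and annotation the authors used is not given in the sources used here, so reads of antisense partners could not be told apart. Summary entries that name no gene (reads not aligned, ambiguous and the like) were kept out. Gene counts were 25.0% (node 5) to 50.8% (HPN primary 7) of all entries. Symbols were matched by identifier in a table of gene names (87.45% matched). Exon lengths came from GENCODE vM21, which is on another build than mm9, and none of its positions are printed here. The start regions printed above are on GRCm38.p6, also not the authors' build.

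CPM values were scaled by TMM over all 23 libraries at once, with node 7 as the sum of 7a and 7b. The whole table was tested with glmQLFTest after filterByExpr, TMM and a robust glmQLFit (edgeR 4.0.16, R 4.3.3), with a threshold of 0.05 on the Benjamini-Hochberg adjusted p. The 14 primaries formed one fit and the 15 samples of the HPN genotype another. Ratios used log2 of counts plus 0.5. The steps were tested on simulated data. The members, the other gene lists and the markers were chosen with earlier results of these data known. Values per sample (or the lowest, median and highest of a group) are given for members that passed and for Slc2a1, Hk2, Aldoa, Gapdh, Pgk1, Ldha, Hif1a, Epas1, Vegfa, Car9, Bnip3, Ndrg1 and Egln3, others by range or count. Further named pathway genes were at most 4 of smallest p per list, or 1 where none passed; Ppfia4 was added after its value was seen, to complete a count. Single libraries were singled out for standing apart after their values were seen.

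HPN primaries, nodes and lungs of the same title number were read as the same animal, though no label says so. Over numbers 3 to 7 the deviations of node and primary from their group means had correlations of -0.14 to 0.35. Nodes and primaries of different numbers had correlations of -0.352 to 0.343, so these values do not show that a shared number is a shared animal. The alternatives were DESeq2 1.42.0, its size factors, other filters, other sets of samples, batch, marker covariates and the replicate block, as well as leaving out each sample. Since no label names separate animals, a p-value here reflects only sample-to-sample spread, which may be technical. The least different pair of libraries in a group, nodes 7a and 7b, had a chi-square per gene of 108. No library was therefore read as a copy of another. In the main tests each library was 1 sample, except that 7a and 7b were summed for their shared number.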

Additional observations from a re-analysis of the deposited data

Results flagged for a closer look

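Within groups of 6 or 7 samples, 11 of the 105 combinations of a gene and a group held a sample whose gap to the next was too wide for its group by Dixon's test, where chance gives about 1 in 20. HPN primary 7 held 5 of them, with Ldha at 1826 CPM, Pfkp at 546 CPM, Kdm3a, a histone demethylase, at 259 CPM, Bnip3 at 225 CPM and Egln1, the main oxygen sensor, at 208 CPM, each the highest HPN primary. HPN primary 2 was low in Ndrg1 (32.0 CPM). Among the HP primaries, Hif1a was high in number 3 (500.2 CPM), Ankrd37 high in number 5 (5.28 CPM), Kdm3a low in number 6 (97.8 CPM) and Slc16a3 low in number 7 (6.42 CPM). Among the nodes Eno2, the neuronal enolase, was high in number 4 (74.7 CPM).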

How the results depend on the processing

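The median difference of the members moved from its main value by less than the spread between library medians (SD 0.43) under every setting run, but changed sign between the genotypes, from 0.13 to -0.08 without HPN primary 7, and in lungs against primaries, from -0.12 to 0.10. In nodes against primaries, 11 members passed, and 17 did with DESeq2, 21 with the muscle genes as a covariate, 5 with no filter, 3 with the replicate block, 2 in the same 10 samples without the block, 2 without HPN primary 7 and node 5, 0 without the low-quality libraries, and 1 to 16 with 1 sample left out (1 without node 5). The range was set by more libraries than HPN primary 7 and node 5: the count was 5 without node 3, 3 without node 6, 6 without node 7, 2 without node 8, and 6 without HPN primary 4 or 5. Over all genes the calls went from 4313 to 5743 with DESeq2, 4786 with the muscle covariate and 3854 with no filter. They were 730 with the block, 1832 in the same samples, 1542 without the low-quality libraries, 2821 without both libraries, and 2731 to 5333 with 1 sample left out. Car12 turned to 2.38 with the keratinocyte and to 0.23 with the muscle covariate, and Pgam2 to 1.67 with the muscle covariate; the cause was not tested.

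Between the genotypes 1 gene in all passed with the muscle covariate, 0 otherwise; with the replicate block, where numbers of different animals are only shared (correlations -0.09 to 0.64), 0 members passed and the median was 0.17. In lungs against primaries DESeq2 called 1 member. Calls over all genes there (51) were 89 with all 4 groups in 1 fit, 358 with DESeq2, 12 with a filter of 1 CPM, 9 and 100 with the keratinocyte and muscle covariates, 138 with no filter, 0 with the block and in its samples, 1 without the low-quality libraries, and 0 to 393 with 1 sample left out. In lungs against nodes (966) they were 263 with a batch term, 2467 with DESeq2, 1468 and 1905 with the same covariates, 0 with the block, in its samples and without the low-quality libraries, and 0 to 2017 with 1 sample left out. The block and the fits on its samples, and those without the low-quality libraries, have fewer samples. Depth limits Car12 most, at 0.0583 CPM in HPN primary 5. Leaving out HPN primary 7 with node 5, and fitting the block's samples without the block, were chosen after seeing the data.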
